A study of Mus musculus with 574 samples.

Results

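The genes described here encode the proteins of the cytosolic ribosome. They were taken as every row whose symbol is Rps, Rpl or Rplp followed by a number and at most 1 of the letters a, x or l, without the -ps suffix that marks pseudogenes. The rule found 77 of the 23707 rows in the deposited table of pools, of which 30 were small subunit genes (Rps), 44 large subunit genes (Rpl) and 3 genes of the P stalk (Rplp0, Rplp1 and Rplp2). In the deposited table of single cells it found 78 of 25490 rows, the further one being Rpl3l, a paralogue of Rpl3 known from muscle. Genes such as Rpsa, Fau, Rpl22l1, Rpl7l1, Rpl36al and the ribosome-bound protein Rack1 (listed as Gnb2l1) fall outside the rule and were kept as a list of their own.

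Each ribosome holds, in general, 1 copy of nearly every one of these proteins, and the cell builds small and large subunits in the nucleolus from ribosomal RNA and imported proteins. The transcripts of ribosomal protein genes are among the most abundant in growing cells, and most begin with a short run of pyrimidines (C and U) at the 5′ end, the TOP motif, through which mTOR signalling and the protein Larp1 set how strongly they are translated. Dividing neural progenitors make new ribosomes at each cell cycle, whereas a neuron has left the cell cycle.

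The cells came from the developing ventral midbrain of C57BL/6 mouse embryos heterozygous for Lmx1a-EGFP, a reporter of the floor plate transcription factor Lmx1a, and every sample, controls included, carried this allele. There were 24 pools of 100 cells, in 4 groups of 6: GFP-positive and GFP-negative at E10.5 (embryonic day), and GFP-positive and GFP-negative at E13.5. There were also 550 single cells, of which 24.9% were from E10.5, 16.4% from E11.5, 32.4% from E12.5 and 26.4% from E13.5, each made into a Smart-seq2 library. The labels name no embryo or litter, so p-values measure only the spread between pools, which may be technical, and the cells of a stage count as 1 sample. In the pools the markers matched the labels: the summed RPKM (reads per kilobase of transcript, scaled to library size) of 9 ventral midbrain markers was 682 to 784 in E10.5 GFP-positive pools against 198 to 303 in E10.5 GFP-negative pools, and 341 to 508 against 92.2 to 163.3 at E13.5. The EGFP row was at 170.4 to 231 RPKM in the E10.5 and 51.1 to 80.3 in the E13.5 GFP-positive pools, and at no more than 5.82 in any GFP-negative pool.

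The region around the transcription start is shown for 6 genes because these are the genes at the ends of the main result, the change from E10.5 to E13.5: Rps27l, Rps2 and Rpl22 had the largest mean fall over both GFP classes, and Rpl10a, Rpl12 and Rps28 the smallest mean change in size, among genes with a RefSeq promoter entry and a mean of at least 10 RPKM at E10.5. Sequences are from RefSeq for GRCm38.p6, the build named mm10 in the submitters' processing notes, and run from 60 bases before to 20 bases after the first start listed for the gene, 5′ to 3′ on the gene's strand. This first listed start lies inside the RefSeq locus for Rps27l, Rps2 and Rpl22, and at the outer end of the locus for Rpl10a, Rpl12 and Rps28. The windows are therefore not all at the same kind of start. Capitals mark the longest unbroken run of C and T that lies within 20 bases of the start. Rps27l (chr9:66946026-66946105), Rps2 (chr17:24720003-24720082), Rpl22 (chr4:152325666-152325745), Rpl10a (chr17:28328411-28328490) and Rpl12 (chr2:32961652-32961731) lie on the plus strand, and Rps28 (chr17:33824543-33824622) on the minus strand.
Rps27l: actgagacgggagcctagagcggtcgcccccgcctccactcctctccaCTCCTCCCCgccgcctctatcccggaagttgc
Rps2: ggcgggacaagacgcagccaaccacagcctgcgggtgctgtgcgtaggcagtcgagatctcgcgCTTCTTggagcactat
Rpl22: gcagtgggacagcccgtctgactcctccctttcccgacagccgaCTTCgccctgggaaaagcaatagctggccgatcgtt
Rpl10a: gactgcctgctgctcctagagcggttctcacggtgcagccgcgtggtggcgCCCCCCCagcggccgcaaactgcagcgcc
Rpl12: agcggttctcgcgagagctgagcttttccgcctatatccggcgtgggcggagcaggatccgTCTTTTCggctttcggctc
Rps28: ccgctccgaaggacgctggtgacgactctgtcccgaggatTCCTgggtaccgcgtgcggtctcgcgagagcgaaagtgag

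In these 6 windows the run was 9, 6, 4, 7, 7 and 4 bases long in the order printed, so the genes that fell most and those that changed least had runs of overlapping lengths. Of the 78 genes, 58 had a RefSeq promoter entry. At any of its starts, a run of C or T of at least 8 bases was present in 29 of these 58 genes, against 18.3% of 17492 protein-coding genes. The letters CCGGAAG, the core that Ets family factors bind, searched on both strands over 250 bases before and 50 after the start, were in 24 of the 58 (41.4%), against 12.9% of protein-coding genes. GGGCGG, the GC box, searched the same way, was in 60.3% against 49.2%. TATAAA, searched on the gene's strand from 50 bases before to 20 after the start, was in 1 of the 58, against 4.19%. Among the 55 genes with an entry and a test, the median change with stage was -0.996 on the log2 scale for the 29 with a run of at least 8 bases and -0.94 for the 26 with a shorter run (Spearman's rho of run length and change 0.03 over genes, which are not independent replicates).

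The summed share of the 77 genes in all RPKM of a pool was lower at E13.5 than at E10.5, in both GFP classes. In E10.5 GFP-positive pools the share was 4.63% at the lowest, 5.03% at the median and 5.12% at the highest, and in E13.5 GFP-positive pools it was 2.13%, 2.36% and 2.47%. In GFP-negative pools it was 4.31%, 4.57% and 5.001% at E10.5, then 2.12%, 2.48% and 2.64%. Every E10.5 pool was thus above every E13.5 pool, while the GFP classes overlapped within each stage. The small subunit genes made up 2.28% to 2.49% of all RPKM in E10.5 GFP-positive and 1.01% to 1.16% in E13.5 GFP-positive pools, and the large subunit and stalk genes 2.34% to 2.70% and 1.11% to 1.34%. A sum over 100 cells cannot tell fewer cells of a type from less RNA per cell.

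**Figure D1:**
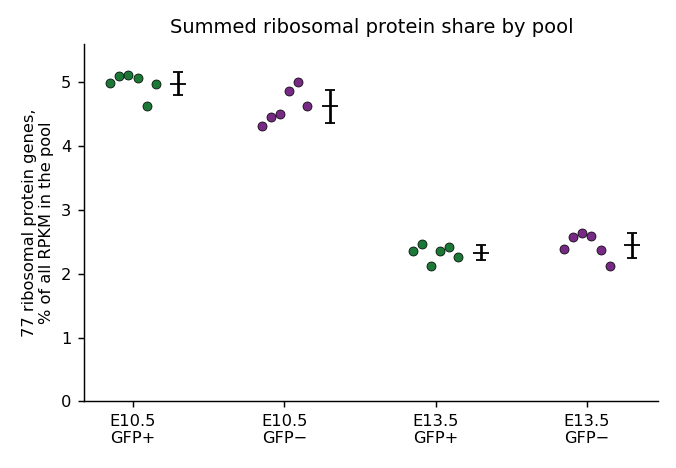
Share of the 77 ribosomal protein genes in all RPKM of each pool, in percent, for the 4 groups of 6 pools; points are pools, and the bar beside them is the mean and SD. E10.5 pools sit between 4.31% and 5.12% and E13.5 pools between 2.12% and 2.64%, with no overlap between stages.

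Other values moved with stage in the same pools. The summed RPKM of 10 cell cycle markers was 2183 to 2631 in E10.5 GFP-positive and 118.2 to 271.6 in E13.5 GFP-positive pools, and that of 10 neural progenitor markers 3197 to 3723 and 1608 to 2370, with none of either list at 0 in all pools of a group. The sum of 12 pan-neuronal markers was 344 to 618 and 5087 to 5672. The GFP-negative pools moved the same way: cell cycle 1290 to 1823 and 28.7 to 223, pan-neuronal 1602 to 2966 and 5309 to 5952. Markers of other cell types were lower at E13.5 in these pools as well. The sum of 8 mesenchyme and pericyte markers went from 136.2 to 358 RPKM at E10.5 to 0.426 to 10.8 at E13.5, without overlap, and all 7 tested fell. Sums of 10 red blood cell markers went from a median of 30546 (42.5 to 78517) to 92.4 (28.6 to 23246), and those of 9 microglia and macrophage markers from 264 (0 to 648) to 1.16 (0 to 395), with 6 of 8 and 9 of 9 tested markers called lower. The sum of 7 endothelial markers was 2.33 to 76.2 and 0 to 56.7 RPKM, and 2 of the 3 tested fell. No marker of these lists was at 0 in all E13.5 GFP-negative pools except 2 red blood cell markers. The share of mitochondrially encoded transcripts was 8.09% to 9.26% in E10.5 and 11.2% to 15.1% in E13.5 GFP-positive pools, and the stages also have separate runs of library numbers in their titles, so stage and library run cannot be told apart. The part of these values in the fall was not tested.

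Of the 77 genes, 75 passed the filter on low values (at least 1 RPKM in at least 6 pools) and were tested among 15872 genes. The 2 left out were Rpl10l and Rpl39l, paralogues of Rpl10 and Rpl39 known from testis, which were listed at 0 in most pools and reached at most 1.09 and 5.80 RPKM. Of the 75, 59 fell in GFP-positive pools from E10.5 to E13.5 and 1 rose (limma, adjusted p under 0.05), against 29.6% of all tested genes that fell, 22.1% that rose and 51.7% that changed in either direction. In GFP-negative pools 56 fell and 1 rose, against 26.9% that fell, 19.7% that rose and 46.6% that changed. The median difference over the 75 was -0.997 in the GFP-positive and -0.92 in the GFP-negative pools on the log2(RPKM + 1) scale, against -0.14 and -0.11 over all tested genes. Among the 1383 tested genes with a mean of at least 100 RPKM, 732 fell in the GFP-positive and 687 in the GFP-negative pools, with medians of -0.36 and -0.30. In 42 genes the 6 values of the stages did not overlap in GFP-positive pools, and in 46 they did not in GFP-negative pools, always with E13.5 lower, against 17.1% and 14.3% of all tested genes. With median-of-ratios scaling the median of all tested genes in GFP-positive pools moved from -0.14 to -0.03, and that of the 75 genes to -0.85.

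**Figure D2:**
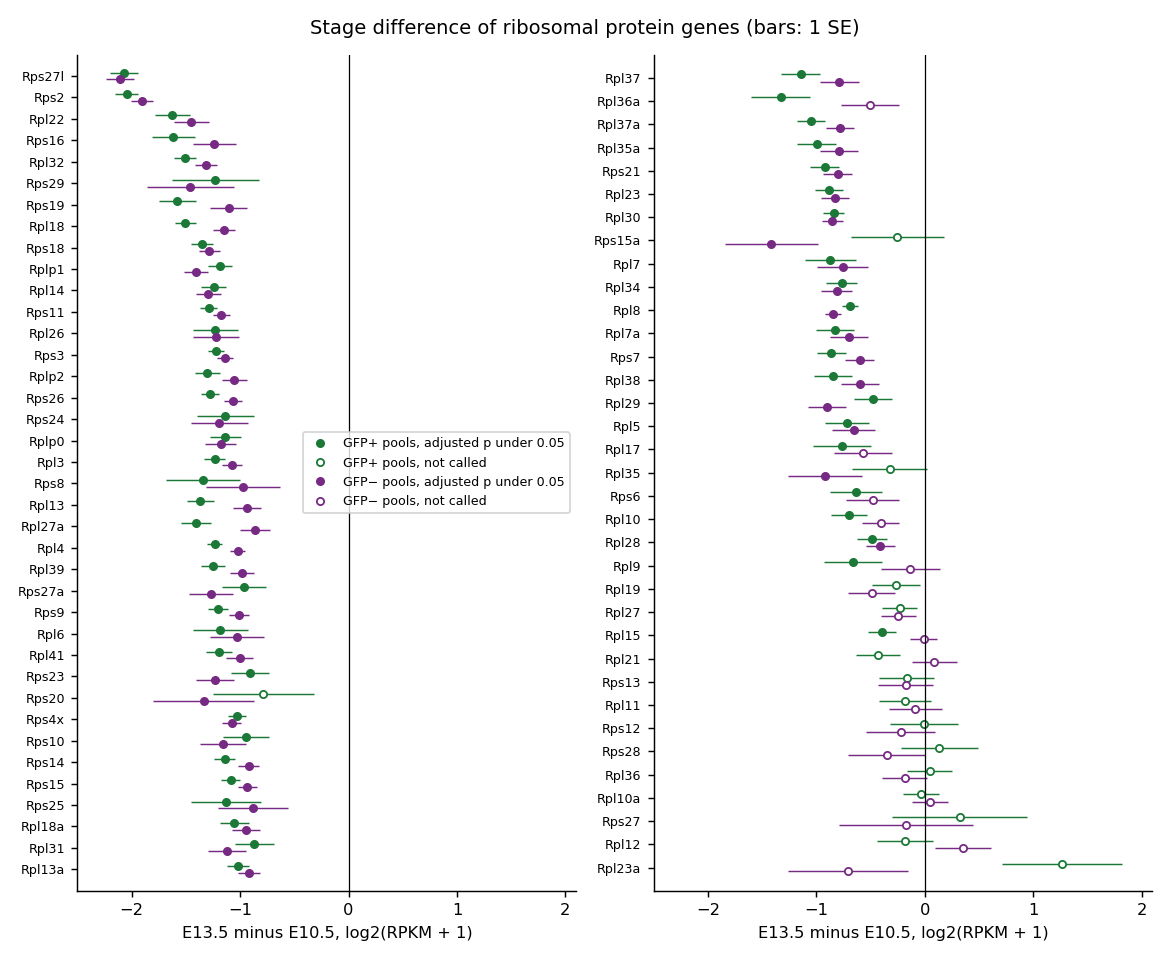
Difference between E13.5 and E10.5 in log2(RPKM + 1) for 73 of the 75 tested genes, in GFP-positive (green) and GFP-negative (purple) pools, with 1 SE; filled points have a limma adjusted p under 0.05. The filled points drawn lie left of 0, from -2.11 for Rps27l.

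The fall was shared by the parts of the ribosome. In GFP-positive pools 23 of 30 small subunit genes, 33 of 42 tested large subunit genes and all 3 stalk genes fell, with medians of -1.06, -0.86 and -1.18. In GFP-negative pools these counts were 24, 29 and 3, with medians of -1.07, -0.80 and -1.18. Of all tested genes, 29.6% were called lower among GFP-positive pools and 26.9% among GFP-negative ones. In both classes 53 ribosomal protein genes fell, and 62 fell in at least 1 class. The share of all tested genes that fell in both classes, or in at least 1, was not computed, so these counts have no background. The calls differed with the level of the gene. Among ribosomal protein genes with a mean of at least 100 RPKM 39 of 41 fell in GFP-positive and 41 of 41 in GFP-negative pools. Of all 1383 tested genes at that level, 52.9% and 49.7% fell. Among the 34 lower tested ribosomal protein genes 20 (58.8%) and 15 (44.1%) fell, against 29.6% and 26.9% of tested genes of any level. No share over all lower genes was computed.

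Within the small subunit, Rps27l changed most. Rps27l (chr9:66944624-66949522), a close paralogue of Rps27 that p53 is known to induce, was at 570.3, 641 and 728 RPKM (lowest, median, highest) in E10.5 GFP-positive pools and at 126.2, 149.03 and 179.6 RPKM in E13.5 GFP-positive pools. In GFP-negative pools Rps27l was at 480.4, 599 and 892 RPKM and then at 113.6, 145.5 and 168.4. The stages did not overlap in either class, and Rps27l fell by 2.07 ± 0.13 (SE) and 2.11 ± 0.13 on the log2 scale (limma adjusted p = 3.7e-13 and 9.6e-13). Its paralogue Rps27 stood at 0 to 23.04 RPKM over all pools, with differences of 0.32 ± 0.62 and -0.17 ± 0.62 (limma adjusted p = 0.69 and 0.84).

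Rps2 (chr17:24718121-24721927), a protein near the mRNA entry of the small subunit, fell most after Rps27l in both classes. It was at 1688, 2005 and 2113 RPKM in E10.5 GFP-positive pools and at 421, 478 and 507 RPKM at E13.5. In GFP-negative pools Rps2 was at 1428, 1657 and 2489.6 RPKM and then at 387, 476 and 529. All E13.5 pools were lower, by 2.05 ± 0.11 and 1.90 ± 0.11 in the fitted means (limma adjusted p = 1.4e-14 and 2.4e-13).

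Rps19, the gene most often mutated in Diamond-Blackfan anaemia, went from 446, 521 and 604 RPKM to 99.8, 175.5 and 265 in GFP-positive pools. The stages did not overlap, and it fell by 1.58 ± 0.17 there and by 1.11 ± 0.17 in GFP-negative pools (limma adjusted p = 1.5e-08 and 6.1e-06). Rps16 fell by 1.62 and 1.24, and Rps18, which lies in the head of the subunit, by 1.35 and 1.28. Rps4x, the X-linked small subunit gene, fell by 1.03 ± 0.09 and 1.08 ± 0.09. Rps27a, made as a fusion with ubiquitin, fell by 0.96 ± 0.20 and 1.27 ± 0.20. Rps6, the substrate of the S6 kinases, was at only 4.67 to 19.5 RPKM over all pools and fell by 0.63 ± 0.24 in GFP-positive pools (limma adjusted p = 0.030), while in GFP-negative pools its difference was -0.48 ± 0.24 (adjusted p = 0.11). The Rps6 call in GFP-positive pools was lost with median-of-ratios scaling (adjusted p = 0.079) and without any 1 of 4 pools: E10.5 GFP-positive replicate 5 (0.061) or 6 (0.091), E13.5 GFP-positive replicate 5 (0.078) or 6 (0.057). Without E13.5 GFP-negative replicate 3 the Rps6 difference in GFP-negative pools passed the threshold (adjusted p = 0.018).

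Rps29 and Rps20 fell with wide spread. Rps29 was at 30.7, 31.9 and 41.3 RPKM in E10.5 and 5.59, 14.002 and 32.3 in E13.5 GFP-positive pools, so the stages overlapped, with a fall of 1.23 ± 0.40 there and 1.46 ± 0.40 in GFP-negative pools (limma adjusted p = 0.013 and 0.0041). Rps20 fell by 1.34 ± 0.47 in GFP-negative pools (adjusted p = 0.021), and its difference in GFP-positive pools was -0.78 ± 0.47 (adjusted p = 0.17). The Rps20 difference in GFP-positive pools passed the threshold without E10.5 GFP-positive replicate 1 (adjusted p = 0.049) or replicate 3 (0.033), and its call in GFP-negative pools was lost with quantile normalization (0.053). Rps15a was at 420.0, 462 and 531 RPKM in E10.5 GFP-negative and 33.9, 219.9 and 349 RPKM in E13.5 GFP-negative pools, without overlap, and fell by 1.41 ± 0.43 (limma adjusted p = 0.0081). In GFP-positive pools Rps15a was at 58.1, 410.0 and 500.2 RPKM and then at 226, 247 and 298, a difference of -0.25 ± 0.43 (adjusted p = 0.65). The single pool at 58.1 RPKM set this value: without E10.5 GFP-positive replicate 6 the Rps15a difference was -0.72 (adjusted p = 0.074), and without E13.5 GFP-negative replicate 2 that in GFP-negative pools was -0.95 (adjusted p = 0.024).

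**Figure D3:**
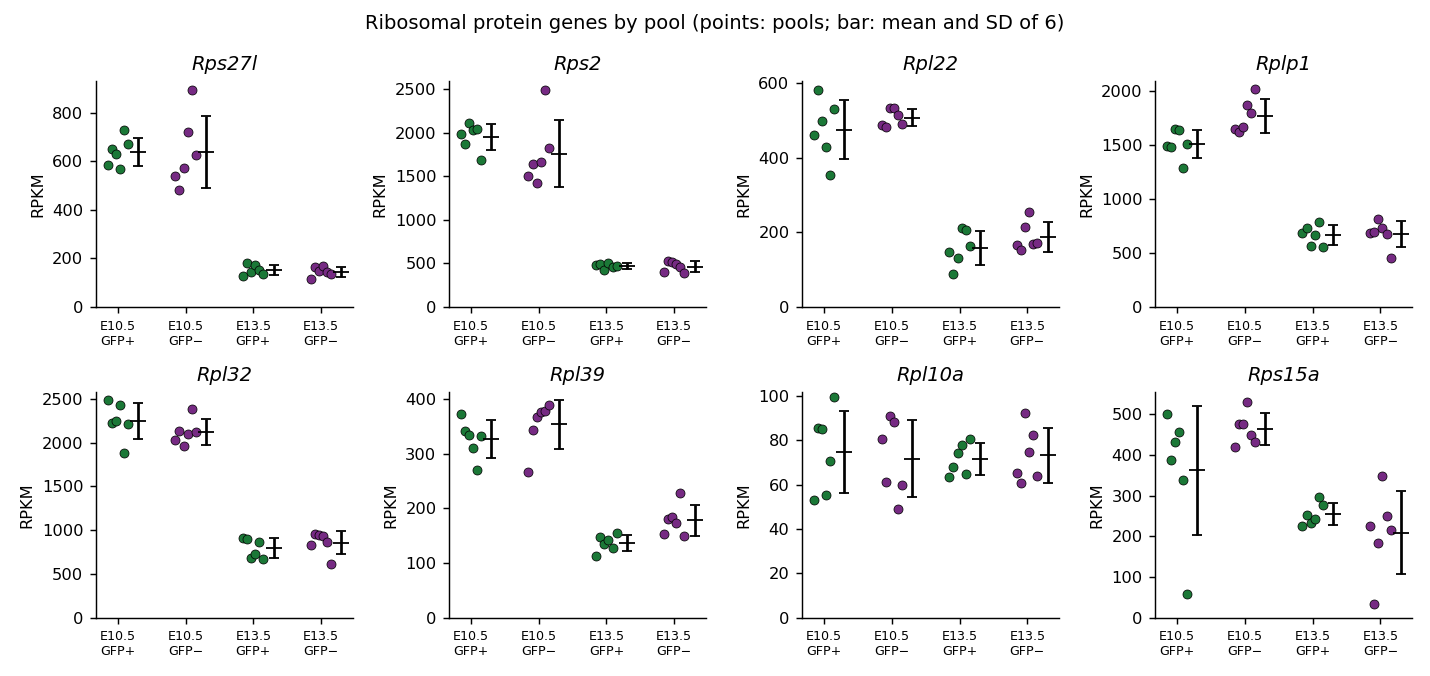
RPKM of 8 ribosomal protein genes in each of the 24 pools, with the mean and SD of each group of 6. Rps27l, Rps2, Rpl22, Rplp1, Rpl32 and Rpl39 are lower in every E13.5 pool than in any E10.5 pool of their class, Rpl10a lies between 49.2 and 99.4 RPKM throughout, and 1 E10.5 GFP-positive pool of Rps15a stands at 58.1 RPKM.

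Among large subunit genes, Rpl22 and Rpl32 fell most in the mean of both classes. Rpl22 (chr4:152324436-152334082), which also binds RNA outside the ribosome, was at 353, 479 and 580.3 RPKM in E10.5 GFP-positive and 89.4, 154.7 and 211 RPKM in E13.5 GFP-positive pools, without overlap. It fell by 1.62 ± 0.16 and, in GFP-negative pools, by 1.45 ± 0.16 (limma adjusted p = 3.4e-09 and 3.8e-08). Rpl22l1, its paralogue outside the symbol rule, whose levels Rpl22 is known to restrain, fell as well, from 370.3, 439 and 475 RPKM to 103.98, 121.6 and 141.8 in GFP-positive pools, a difference of -1.79 ± 0.11 (limma adjusted p = 5.3e-13), and by 1.45 ± 0.11 in GFP-negative pools. Rpl32, with a mean of 1506 RPKM, fell by 1.51 ± 0.10 and 1.32 ± 0.10, and its stages did not overlap in either class.

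Rpl18 fell by 1.51 and 1.15, Rpl27a by 1.41 and 0.86, Rpl13 by 1.37 and 0.93 and Rpl14 by 1.24 and 1.30. Rpl3, whose protein lies at the peptidyl transferase centre, fell by 1.24 ± 0.09 and 1.08 ± 0.09. Rpl38, known from the skeletal patterning defects of its mutants, went from 117.2, 136.2 and 167.4 RPKM to 62.96, 72.2 and 103.4 in GFP-positive pools and fell by 0.84 ± 0.17 there and by 0.60 ± 0.17 in GFP-negative pools (limma adjusted p = 0.00022 and 0.0063). Rpl10, one of the last proteins to join the large subunit, fell by 0.70 ± 0.17 in GFP-positive pools. Its difference in GFP-negative pools was -0.41 ± 0.17 (adjusted p = 0.051), on the other side of the threshold with a pseudocount of 10 (0.047), a filter at 10 RPKM (0.043), only the pools compared (0.036) or without 1 of 3 pools (E10.5 GFP-negative replicate 2 or 4, E13.5 GFP-negative replicate 5).

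Rpl5 and Rpl11, which bind the 5S ribosomal RNA together and can also bind Mdm2, differed in their calls. Rpl5 fell by 0.72 ± 0.20 and 0.65 ± 0.20 (limma adjusted p = 0.0037 and 0.0084). Rpl11 stood at 12.4 to 43.4 RPKM over all pools with differences of -0.18 ± 0.24 and -0.09 ± 0.24 (adjusted p = 0.56 and 0.80). The difference between the 2 genes was not tested. Rpl10a stood at 52.9, 77.9 and 99.4 RPKM in E10.5 and 63.7, 71.1 and 80.4 in E13.5 GFP-positive pools, with differences of -0.03 ± 0.16 and 0.05 ± 0.16. The 12 genes called in neither class were Rps12, Rps13, Rps27, Rps28, Rpl10a, Rpl11, Rpl12, Rpl19, Rpl21, Rpl23a, Rpl27 and Rpl36. All 12 had a mean under 100 RPKM, and Rpl23a and Rps27 were listed at 0 in at least 1 pool. Rpl23a had differences of opposite sign, 1.27 ± 0.55 and -0.71 ± 0.55 (limma adjusted p = 0.057 and 0.31).

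The stalk genes encode the flexible acidic proteins that recruit elongation factors, with Rplp0 as the base. Rplp0 was at 1135, 1386 and 1865 RPKM in E10.5 and 494, 607 and 801 in E13.5 GFP-positive pools, and fell by 1.14 ± 0.14 there and by 1.18 ± 0.14 in GFP-negative pools. Rplp1 fell by 1.18 ± 0.11 and 1.41 ± 0.11, and Rplp2 by 1.30 ± 0.12 and 1.05 ± 0.12. None of the 3 overlapped between stages in either class (limma adjusted p at most 2.0e-07).

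Between GFP classes of 1 stage few ribosomal protein genes were called. At E10.5 none of the 75 was called (limma adjusted p under 0.05), with 6 at an unadjusted p under 0.05, against 13.1% of all tested genes called. None had groups that did not overlap, against 7.59% of all tested genes. The median difference was -0.00, and 37 genes were above 0 and 38 below. The largest difference was that of Rps27, -1.51 ± 0.62 (adjusted p = 0.12). The E10.5 GFP-negative pools held other cells: 10 red blood cell markers summed to 42.5 to 78517 RPKM there against 38.8 to 81.6 in GFP-positive pools, 8 mesenchyme and pericyte markers to 136.2 to 358 against 5.44 to 29.9, and 9 microglia and macrophage markers to 0 to 648 against 0 to 1.14, where 6 of the 9 were at 0 in all 6 pools. With the globin genes taken out of the total the count at E10.5 was again 0, and 54 of the 75 fell with stage in GFP-negative pools.

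At E13.5 Rpl39 was lower in GFP-positive pools, the 1 call among the 75, against 7.16% of all tested genes called and 3.74% called lower. The median difference over the 75 was -0.11, with 21 genes above 0 and 54 below, and 11 had an unadjusted limma p under 0.05. Over all 15872 tested genes the median was -0.03, with 7424 above 0 and 8428 below, and 3193 had an unadjusted limma p under 0.05. Rpl39 (chrX:37082518-37085222), a small protein of the exit tunnel, was at 112.2, 138.4 and 155.5 RPKM in GFP-positive and 150.3, 177.03 and 228 RPKM in GFP-negative pools. The groups overlapped, and the difference was -0.37 ± 0.11 (limma adjusted p = 0.037, and 0.022 to 0.11 over 22 alternatives). The Rpl39 call was lost without a filter, without a variance trend, with only the E13.5 pools, and without any 1 of 8 E13.5 pools (GFP-positive replicates 1, 3, 4 and 5, GFP-negative replicates 2, 3, 4 and 5). Rps25 was the member whose groups did not overlap at E13.5 (1.48 to 7.05 RPKM in GFP-positive and 7.53 to 20.1 in GFP-negative pools, against 4.01% of all tested genes), named after its values were seen, with an adjusted p of 0.10 by limma.

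The change of the GFP difference between stages was called for 0 of the 75 genes by limma, with 7 at an unadjusted p under 0.05, against 5.83% of all tested genes called. The median of this difference was -0.11. Rpl18 and Rpl27a, whose fitted falls were larger in GFP-positive pools, gave -0.36 ± 0.14 and -0.54 ± 0.20 (adjusted p = 0.14 and 0.11), and both were called when the total was taken without the 77 genes. Rps15a gave 1.16 ± 0.61 (adjusted p = 0.31).

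Other genes of the translation apparatus were counted beside these, in lists chosen with earlier results of these data known. All 7 ribosomal proteins outside the symbol rule fell in both classes, among them Rpsa by 0.86 and 0.95 and Fau by 0.65 and 0.86. Of 75 mitochondrial ribosomal protein genes, which serve a separate ribosome, 55 fell in the GFP-positive and 50 in the GFP-negative pools and 0 rose (median -0.71 and -0.58). Of 26 translation initiation factors 19 and 21 fell and 2 and 1 rose, among them Eif4a2, which rose by 0.46 and 0.91. Among 35 ribosome biogenesis genes 24 and 25 fell, with Ltv1, needed for small subunit export, at -2.05 and -1.93, and 1 rose in each class, Rrn3 and Rrp1.

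Of 8 elongation factor genes 5 (62.5%) fell in each class, against 29.6% and 26.9% of all tested genes, and 2 and 1 rose. Eef2 rose by 0.24 ± 0.09 in GFP-positive pools (limma adjusted p = 0.022). The paralogues of elongation factor 1 alpha moved apart. Eef1a1 went from 2680.3, 5007 and 6977 RPKM to 2169, 2392 and 2875 in GFP-positive pools and fell by 0.99 ± 0.16 and, in GFP-negative pools, by 0.65 ± 0.16. Eef1a2, the form of mature neurons and muscle, was listed at 0 in every E10.5 GFP-positive pool and at 0.334, 3.55 and 8.75 RPKM at E13.5, and rose by 2.17 ± 0.42 and 1.71 ± 0.42 (limma adjusted p = 0.00010 and 0.0016), a size that depends on the pseudocount. Of 11 other TOP transcripts and snoRNA hosts 7 (63.6%) and 8 (72.7%) fell and 0 rose, against 29.6% and 26.9% of all tested genes that fell. The poly(A)-binding protein Pabpc1 was at -2.34 and -2.05.

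Among 18 growth regulators 7 (38.9%) fell and 5 (27.8%) rose in GFP-positive pools, against 29.6% and 22.1% of all tested genes. In the GFP-negative ones 4 (22.2%) fell and 4 rose, against 26.9% and 19.7%, so the shares lie near the background. The medians were 0.15 and -0.22. Mycn, the Myc family member of neural progenitors, went from 31.4, 48.1 and 62.4 RPKM to 11.1, 16.9 and 19.7 in GFP-positive pools, without overlap, and fell by 1.42 ± 0.17 and 1.02 ± 0.17 (limma adjusted p = 1.4e-07 and 2.5e-05). Myc was at 4.65 to 24.2 RPKM over all pools, with differences of 0.69 ± 0.33 and 0.26 ± 0.33 (adjusted p = 0.078 and 0.54). Eif4ebp1, an inhibitor of cap-dependent translation that mTOR inactivates, fell by 3.68 and 5.35, while Tsc2, an inhibitor of mTOR, rose by 0.92 and 0.75. Opposite to Eif4ebp1, its paralogue Eif4ebp2 rose by 0.90 ± 0.18 in GFP-positive pools (limma adjusted p = 0.00013).

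**Figure D4:**
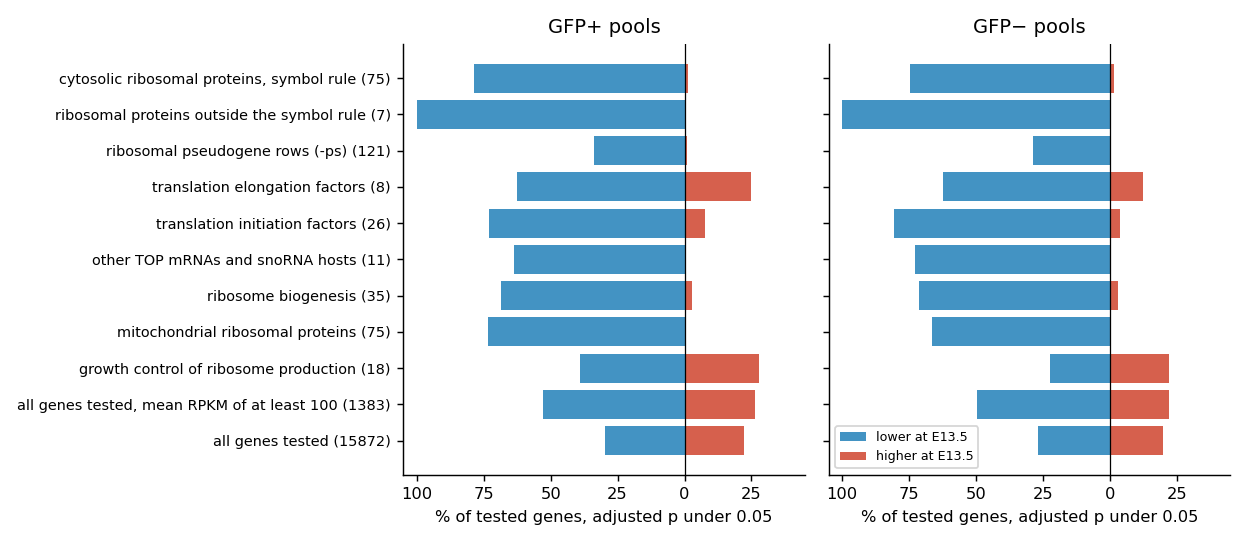
Percent of tested genes of each list called lower (blue, to the left) or higher (red, to the right) at E13.5 than at E10.5, with the number tested in brackets, for GFP-positive and GFP-negative pools (limma adjusted p under 0.05). The ribosomal protein genes are at 78.7% and 74.7% lower, all tested genes at 29.6% and 26.9%, and the growth regulators have bars on both sides.

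Levels differed widely between the 77 genes. On the RPKM scale, which is per length, means over the 24 pools had a median of 103.07, 11 genes were at 1000 or more, and the 10 most abundant made up 48.99% of the sum. Rps6, Rps12, Rpl17 and Rps27 were at means of 10.95, 10.9, 8.94 and 8.21 RPKM. Ribosomal protein genes have many near-identical pseudogenes, and how reads with several alignments were counted is not given in the sources used here, so the split between a gene and its copies is uncertain. Of the 77 genes 50 have at least 1 -ps row in the table, and the number of such rows and the level of the gene had a Spearman's rho of -0.21 over the 77 genes. The -ps rows together took 1.72% to 2.14% of all RPKM in E10.5 GFP-positive and 0.830% to 1.04% in E13.5 GFP-positive pools, and in GFP-positive pools 33.9% of those tested fell, against 29.6% of all tested genes. Within groups the genes varied together weakly, but more than all tested genes of their level. The median correlation of residuals between pairs of genes over the 24 pools was 0.12 for the 75. It was 0.23 for the 41 with at least 100 RPKM and 0.02 for 1383 genes of that level.

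The single cells separated progenitors from neurons at the same stage. Cells were taken as progenitors where Nes, an intermediate filament of neural progenitors, was at 10 RPKM or more and Stmn2, a tubulin regulator of neurons, under 10, and as neurons for the reverse. From E10.5 to E13.5, 3, 7, 13 and 5 cells passed both thresholds and 18, 8, 18 and 7 neither. These were left out of the Nes and Stmn2 classes. At each stage all 10 progenitor markers were at least 1.5-fold higher in Nes cells, and at least 11 of the 12 pan-neuronal markers at least 1.5-fold lower. These lists include Nes and Stmn2 themselves, whose differences were fixed by the thresholds. The 2 tables were normalized separately, so levels are compared within the cells only, and with 1 sample per stage there is no test.

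In each stage the ribosomal protein share was higher in Nes than in Stmn2 cells. The medians were 3.88% in Nes and 2.52% in Stmn2 cells at E10.5, where these were 78.1% of the cells and 9 cells, and 2.03% in 30 Nes and 1.16% in 45 Stmn2 cells at E11.5. They were 3.09% in 25 Nes cells and 1.56% in the Stmn2 cells, 68.5% of the cells, at E12.5, and 2.89% in 19 and 1.66% in 78.6% of the cells at E13.5. The ratio of the medians was 1.54, 1.76, 1.98 and 1.74. The cells overlapped in their ranges, but few crossed: 0, 3, 4 and 7 Stmn2 cells reached the median of the Nes cells of their stage. Cells that passed neither threshold had medians of 3.79%, 1.71%, 2.86% and 2.98% from E10.5 to E13.5. Those that passed both had 3.75%, 1.59%, 1.68% and 1.90%. A share above that of Stmn2 cells was thus not particular to cells that passed the Nes threshold. At E12.5 the titles fall into 2 letter series. The Nes and Stmn2 medians were 2.86% and 1.46% in cells with titles in C, and 3.12% and 1.59% in F. In each series 63 of the 78 genes were higher in Nes cells, and no share over all rows was computed within a series. Over both series together, 50.2% of all rows with a mean of at least 1 RPKM were higher in Nes cells.

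**Figure D5:**
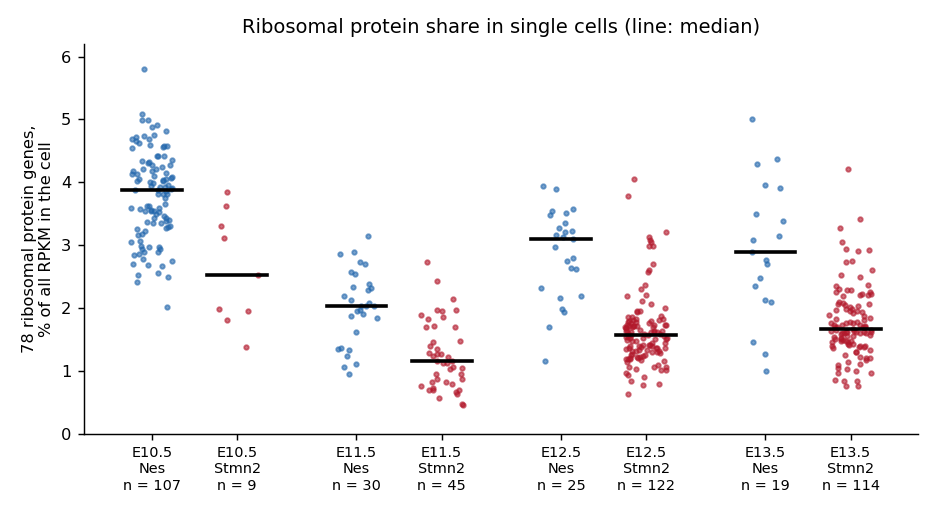
Share of the 78 ribosomal protein genes in all RPKM of each single cell, in percent, by stage and by Nes or Stmn2 class, with the number of cells; the line is the median. Nes medians are 3.88%, 2.03%, 3.09% and 2.89% and Stmn2 medians 2.52%, 1.16%, 1.56% and 1.66% from E10.5 to E13.5.

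Most of the genes took part. Of those with a mean of at least 1 RPKM in a class, 68 of 75 were higher in Nes cells at E10.5, 65 of 75 at E11.5, 65 of 75 at E12.5 and 66 of 76 at E13.5, against 61.3%, 54.2%, 50.2% and 47.5% of all rows at that level. At least 1.5-fold higher were 41, 42, 56 and 48 of them, against 47.5%, 41.7%, 35.8% and 34.3% of all rows, so at E10.5 the share past this fold was near that of all rows. The median log2 ratio of the genes was 0.60, 0.64, 0.79 and 0.70, against 0.43, 0.18, 0.00 and -0.10 over all rows. Over the 78 genes 54 were higher in Nes cells at all 4 stages. The share of all rows higher at all 4 stages was not computed, so this count has no background.

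Among genes with a mean of at least 10 RPKM in Nes or in Stmn2 cells, Rps27a had the highest ratio of Nes to Stmn2 cells over the 4 stages, 34.7 against 13.3 RPKM or 2.60-fold. Rpl5 followed at 30.7 against 12.1 RPKM (2.55-fold), Rps23, which lies at the decoding centre, at 24.4 against 9.82 (2.49-fold), Rpl27a at 90.3 against 38.1 (2.37-fold) and Rps12 at 13.9 against 5.89 (2.37-fold). The ratio of Rps12 rested on the early stages: it was 17.2 against 0.0808 RPKM at E10.5, with 9 Stmn2 cells, and 11.7 against 12.54 at E13.5. Rps27l, the gene that fell most in the pools, was at 310.3 and 208 RPKM in Nes and Stmn2 cells at E10.5, 159.2 and 25.7 at E11.5, 223 and 79.8 at E12.5, and 254 and 96.8 at E13.5. Rps2 was at 882 and 421 RPKM at E10.5, and at 519 and 168.25, 544 and 224, and 553 and 243 at the later stages, so it was 2.09- to 3.08-fold higher in Nes cells.

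At the other end, within the same limit of 10 RPKM, stood Rpl27, a large subunit gene, which was lower in Nes than in Stmn2 cells at each stage. Its mean was 104.03 and 254 RPKM at E10.5, 64.1 and 176.4 at E11.5, 38.8 and 85.98 at E12.5, and 66.8 and 68.9 at E13.5, an overall ratio of 0.468. Rps6 (0.795), Rps28 (0.870), Rpl23a (0.871) and Rps29 (0.998) had the next lowest ratios within that limit, at means under 25 RPKM over the stages. Rps28 changed side between stages, with 13.2 and 46.7 RPKM at E10.5 but 40.4 and 20.9 at E11.5. Single genes of this level were often listed at 0: Rps28 was above 0 in 26.4% of cells, while 41 of the 78 genes were above 0 in at least 95% of cells. Rpl10l, Rpl39l and Rpl3l were above 0 in 1.82%, 0.909% and 0.364% of cells.

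Stage differences were also present within 1 class of cells. Among Nes cells the share was highest at E10.5 and lowest at E11.5, and of the genes with a mean of at least 1 RPKM 72 of 75 were lower at E11.5 than at E10.5, 67 of 75 at E12.5 and 65 of 76 at E13.5, against 57.7%, 57.6% and 60.1% of all rows. The median log2 ratios to E10.5 were -0.97, -0.42 and -0.32. In Stmn2 cells 65 of 74, 62 of 75 and 54 of 75 were lower than at E10.5, against 50.1%, 44.6% and 44.7%. The cells at E11.5 also had fewer genes at 1 RPKM or more, with a median of 3567, than those at E10.5 (5748), E12.5 (4178 and 4439 in titles in F and C) and E13.5 (4287). Except at E12.5, each stage has titles with its own letter, so stage and letter series cannot be told apart.

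Cycling and reporter classes gave further values. Among E10.5 Nes cells the median share was 3.81% in 61 cells with Mki67, a proliferation marker, at 10 RPKM or more and 3.88% in 46 cells below it. At E12.5 it was 2.68% in 8 such cells and 3.12% in 17, and at E13.5 1.91% in 4 and 3.15% in 15, so Nes cells below the Mki67 threshold were not lower in share at these stages. Among Stmn2 cells at E13.5 the median was 2.06% in 20 cells with the EGFP row at 10 RPKM or more and 1.62% in 94 without, while at E11.5 it was 0.892% in 12 and 1.27% in 33, the opposite order.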

How the data were processed

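Per the labels' protocols, Smart-seq2 cDNA was made into Nextera XT libraries. STAR 2.3.0 and mm10 are named per the submitters' processing notes. Counter, annotation and the treatment of reads with several alignments: not given in the sources used here. For pools, the authors deposited RPKM. For cells, the authors deposited log2 values with a lowest value of -9.97, the log2 of 0.001, so RPKM were recovered as 2 to the power of the value, less 0.001. The tables hold no counts. Low values lay within 0.05 of whole multiples of 1 read in only 27.7% of cases for pools and 18.2% for cells (medians over libraries, 10% by chance), so reads were not recovered, the depth is unknown and it limits precision by an unknown amount. No pair of columns was identical.

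The members and gene lists were chosen with earlier results of these data known. Genes with at least 1 RPKM in at least 6 pools were fitted as log2(RPKM + 1) with limma 3.58.1 in R 4.3.3 (4 group means, moderated variances with a trend, Benjamini-Hochberg adjustment over 15872 genes), and called at an adjusted p under 0.05. Fold changes are on the log2(RPKM + 1) scale, which understates changes of low genes. Tested on simulated data for E13.5 against E10.5 in GFP-positive pools over 15872 genes, the fit recovered 73% of 100 genes changed 2-fold and 96% of 100 changed 4-fold. Of its 175 calls 6 were false. The changed genes were drawn only from those above a minimum level, so recovery of lower genes was not tested. Far fewer genes were changed than were called in the data. Named were up to 10 called members per direction with a mean of at least 10 RPKM, members with a known role or a paralogue, and in cells the 5 members at each end of the Nes to Stmn2 ratio with a mean of at least 10 RPKM in either. Alternatives changed the pseudocount, filter, scaling, variance model, pools and cell thresholds. Promoters and loci are from RefSeq (GRCm38.p6). Python 3.11.15 with pandas 2.3.3 was used. Results for a few genes of these lists are not reported here.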

Additional observations from a re-analysis of the deposited data

Results flagged for a closer look

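In the 4 groups of 6 pools, for the share and each of 30 named genes, 18 groups had 1 pool far from the other 5 by Dixon's criterion, which chance reaches in about 1 in 20 groups. The summed share of the ribosomal protein genes was 4.63% in the lowest E10.5 GFP-positive pool, with the next at 4.98%. Rps15a was at 58.1 RPKM in 1 E10.5 GFP-positive pool and at 339.8 or more in the other 5. Among E10.5 GFP-negative pools, Rps2 was at 2489.6 RPKM in the highest pool and 1826 in the next, Rpl13 at 341 and 258, and Rpl39 at 267 in the lowest pool and 344 in the next. Rps29 was at 41.3 RPKM in the highest E10.5 GFP-positive pool and 32.4 in the next. In E13.5 GFP-positive pools, Rps27 was at 16.98 RPKM in the highest pool and 6.11 in the next, and Rps27a at 33.1 and 23.97. In E13.5 GFP-negative pools, Rpl10 was at 69 RPKM in the highest pool and 45.3 in the next, Rpl11 at 43.4 and 22.6, Rps6 at 19.5 and 10.8, Rps4x at 165.97 and 155.2, and Rpl32 at 616 in the lowest and 832 in the next. The testis paralogues were listed at 0 in 5 pools of a group and above it in 1: Rpl10l at 0.661 RPKM (E10.5 GFP-negative) and 0.987 (E13.5 GFP-positive), and Rpl39l at 1.36 (E10.5 GFP-positive), 1.64 (E13.5 GFP-positive) and 5.80 (E13.5 GFP-negative).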

How the results depend on the processing

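The count of ribosomal protein genes called with stage stayed between 57 and 61 in GFP-positive and between 54 and 58 in GFP-negative pools over 10 settings each, and between 58 and 61 and between 55 and 58 when each pool was left out. The ratio of the summed share, E13.5 to E10.5, lay between 0.462 and 0.477 in GFP-positive and between 0.521 and 0.543 in GFP-negative pools without each pool, and as a mean of log2(RPKM + 1) over the genes it was 0.556 in GFP-positive pools. Calls between GFP classes were few and changed. At E13.5 the count was 0 without a filter and without a variance trend, 3 with a filter at 10 RPKM, without globin genes (both times Rpl37a, Rpl27a and Rpl39) and with quantile normalization (Rpl8, Rpl27a and Rpl39), 2 with the total without the members (Rpl27a and Rpl39), and 0 to 3 without each pool. At E10.5 it was 2 with the total without the members (Rps14 and Rpl4), 3 with quantile normalization (Rps14, Rps9 and Rpl4), and 0 to 1 without each pool. For the difference between stages it was 2 with the total without the members, and 0 to 1 without each pool. The cause was not tested. In cells, the count higher in Nes cells stayed between 59 and 74 over the other settings, but with thresholds at 1 RPKM 7 of 78 were higher at E13.5, where 1 Nes cell was left, so the direction of most genes turned there. No called difference of a named gene between pools changed sign under the settings run. No paired analysis was possible because the replicate numbers follow accession order and name no shared animal or batch. Depth is unknown, so differences of genes at a few RPKM cannot be told from counting error.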
